A study of Mus musculus with 6 samples.

Results

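The imprinted genes described here in mouse pancreatic islets are the rows of the deposited expression table named *Nnat*, *Dlk1*, *Meg3*, *Rian*, *Cdkn1c*, *Peg3*, *Plagl1*, *Grb10*, *Igf2* and *Gnas*, which are 10 of 55060 genes. The study sequenced RNA of islets at 12 weeks of age, with 3 Ctrl samples (*Parn* f/f mice and other littermates) and 3 cKO samples (*Ins2-cre; Parn* f/f). The floxed *Parn* allele, which encodes a poly(A)-specific ribonuclease, is deleted in cKO β cells by a Cre recombinase under the *Ins2* promoter. The cKO mice share the floxed allele with the *Parn* f/f Ctrl mice, and cells of the islet other than β cells keep *Parn*. The *Parn* f/f Ctrl mice lack the *Ins2-cre* that cKO mice carry. Against these mice, an effect of Cre cannot be told apart from loss of *Parn*, and it was not tested. How many mice went into each sample and which alleles each Ctrl mouse carried are not given in the sources used here.

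Imprinted genes are expressed mainly from the copy inherited from 1 parent, because a control region of the domain was methylated in the egg or the sperm and keeps that mark in the embryo. Many of them act on growth, metabolism and endocrine cells, and several are marked features of neuroendocrine tissue. By textbook knowledge *Meg3*, *Rian*, *Cdkn1c*, *Grb10* and *Gnas* are maternally expressed and *Nnat*, *Dlk1*, *Peg3*, *Plagl1* and *Igf2* are paternally expressed. *Grb10* is paternally expressed in neurons, and *Gnas* makes maternal, paternal and biallelic transcripts from several promoters. The expressed allele was not measured here, so the class is a label and no value below says which copy an RNA came from.

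The stretches of DNA close before the starts of 5 of these genes are shown because the RNA levels of these 5 carry the results. They come from the RefSeq promoter windows of GRCm38.p6, cut to the bases outside annotated exons, and are written in the direction of the gene. Capitals mark each CpG, the dinucleotide that carries the imprint when methylated. The *Peg3* stretch fills the whole gap between *Peg3* and *Usp29*, which start in opposite directions.
Nnat promoter (chr2:157560008-157560077, plus strand): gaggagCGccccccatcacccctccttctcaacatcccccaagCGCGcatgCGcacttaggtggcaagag
Peg3 promoter (chr7:6730432-6730577, minus strand): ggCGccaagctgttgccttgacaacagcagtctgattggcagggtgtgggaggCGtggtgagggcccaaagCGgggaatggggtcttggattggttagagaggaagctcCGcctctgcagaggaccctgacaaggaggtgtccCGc
Meg3 promoter (chr12:109540746-109541000, plus strand): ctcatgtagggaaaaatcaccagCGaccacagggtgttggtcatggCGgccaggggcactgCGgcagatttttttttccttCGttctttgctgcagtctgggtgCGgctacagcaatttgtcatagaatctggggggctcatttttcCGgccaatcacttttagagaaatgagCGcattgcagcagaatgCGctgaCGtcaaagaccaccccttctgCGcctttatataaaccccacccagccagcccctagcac
Rian promoter (chr12:109603695-109603881, plus strand): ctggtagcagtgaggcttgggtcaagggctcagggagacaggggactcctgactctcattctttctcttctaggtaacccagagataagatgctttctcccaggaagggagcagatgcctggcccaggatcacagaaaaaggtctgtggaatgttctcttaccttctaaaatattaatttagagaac
Dlk1 promoter (chr12:109452573-109452822, plus strand): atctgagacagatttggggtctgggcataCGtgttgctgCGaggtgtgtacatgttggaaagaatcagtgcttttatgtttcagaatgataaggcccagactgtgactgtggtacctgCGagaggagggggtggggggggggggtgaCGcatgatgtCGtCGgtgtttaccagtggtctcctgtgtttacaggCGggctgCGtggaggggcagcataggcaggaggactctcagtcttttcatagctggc
These stretches hold 4 CpG in *Nnat*, 5 in *Peg3*, 10 in *Meg3*, 8 in *Dlk1* and 0 in *Rian*, which lies in the same maternally expressed series of RNAs as *Meg3*. In full windows of 300 bases the median over 32851 promoters was 7 CpG, and the 17 windows of 9 of the 10 genes had a median of 14, from 0 in *Rian* to 45 in *Grb10*. No window of *Cdkn1c* was matched. The hexamer TGCCGC, searched on both strands, is the letters bound by ZFP57, a factor that keeps imprints when its CpG is methylated. It was present in 5 of the 17 windows (29.4%), those of *Nnat*, *Meg3*, *Plagl1*, *Grb10* and *Igf2*, and in 11.6% of all windows. These shares were not compared at equal CpG count, and windows richer in CpG offer more places for this hexamer, which holds a CpG itself. The *Meg3* stretch above holds it on the opposite strand, where it reads gCGgca.

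The libraries held between 15731223 and 18085944 reads, and 1 read on a gene of 1 kilobase gave an FPKM of 0.0553 to 0.0636. *Parn* was checked first, with an FPKM of 6.64, 8.34 and 7.38 across the Ctrl samples, against 4.97, 4.61 and 6.15 across cKO, so all cKO samples were below all Ctrl samples. Ctrl replicate 1 stood apart, with a mean correlation of 0.951 to the other samples against 0.961 to 0.968. Its 7 leukocyte markers summed to an FPKM of 605, against 31.9 to 70.7 in the other 5 samples. Its 4 cycling markers summed to 10.2, against 1.35 to 2.86 in the other 5. For named genes whose call changed without this sample, the value without it is given. The 8 β-cell markers, led by *Ins2*, summed to 234546 to 274956 in Ctrl and 193706 to 215896 in cKO islets. The 7 stromal markers summed to 8.04 to 16.1 in Ctrl and 13.5 to 40.3 in cKO, and the 6 endothelial markers to 104 to 118 and 126 to 158. The 5 α-cell markers summed to 11076 to 16342 in Ctrl and 8753 to 16308 in cKO, the 4 ductal markers to 12.6 to 21.6 and 11.5 to 19.3, and the 7 acinar markers to 6785 to 18544 and 8411 to 30590. At an unadjusted p under 0.05, 2 of 5 α-cell, 2 of 7 stromal and 2 of 6 endothelial markers were higher in cKO. So was 1 of 4 ductal markers, and 1 of 8 β-cell and 1 of 7 leukocyte markers were lower. Beside these, 4.33% of all genes tested were higher and 3.07% lower. Of the δ-cell, PP-cell, acinar, Schwann and neuronal and cycling markers 0 passed, and 0 markers of any list were at 0 in all samples. For 5 genes that mark the sex of the mouse, log2 fold changes ran from -1.35 to 0.11 and 0 passed. The sex of the mice behind each sample was not read from them. In bulk islets, fewer cells of a type and less RNA per cell cannot be told apart, and the part of these markers in the results below was not tested.

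The 10 genes spanned a range from well expressed RNAs to the edge of detection. FPKM divides the fragments counted for a gene by gene length and library size, which allows levels to be set side by side per length. *Peg3* was the highest with a mean FPKM of 82.5 over the 6 samples, above 98.3% of the genes tested. *Meg3* followed at 54.8 and *Rian* at 28.5, then *Nnat* at 22.9 and *Gnas* at 17.0. *Grb10* was at 5.43, *Cdkn1c* at 1.65, *Plagl1* at 0.940, *Dlk1* at 0.678 and *Igf2* at 0.0790. The ranges over the 6 samples overlapped between *Peg3* and *Meg3*, between *Rian* and *Nnat*, between *Nnat* and *Gnas*, between *Cdkn1c* and *Plagl1* and between *Plagl1* and *Dlk1*, although *Peg3* was above *Meg3* and *Plagl1* above *Dlk1* within each of the 6 samples. The order of the other 3 pairs changed between samples, so these were not separated beyond their spread. At the deposited lengths, the ranges of *Meg3* and *Rian*, *Gnas* and *Grb10*, *Grb10* and *Cdkn1c*, and *Dlk1* and *Igf2* lay apart. The deposited lengths are unions of all annotated exons. With the length of the longest principal transcript instead, *Gnas* (48.7 on that scale) passed *Nnat* (34.5), with the rest of the order kept. On that scale the ranges of *Meg3* (50.4 to 86.7) and *Rian* (46.3 to 74.7) overlapped, so the gap between them depended on the length used. The spread within a genotype was smallest for *Nnat* in Ctrl, with a coefficient of variation of 3.69%, and among the 9 genes tested it was largest for *Cdkn1c* in cKO, at 42.7%.

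**Figure D1:**
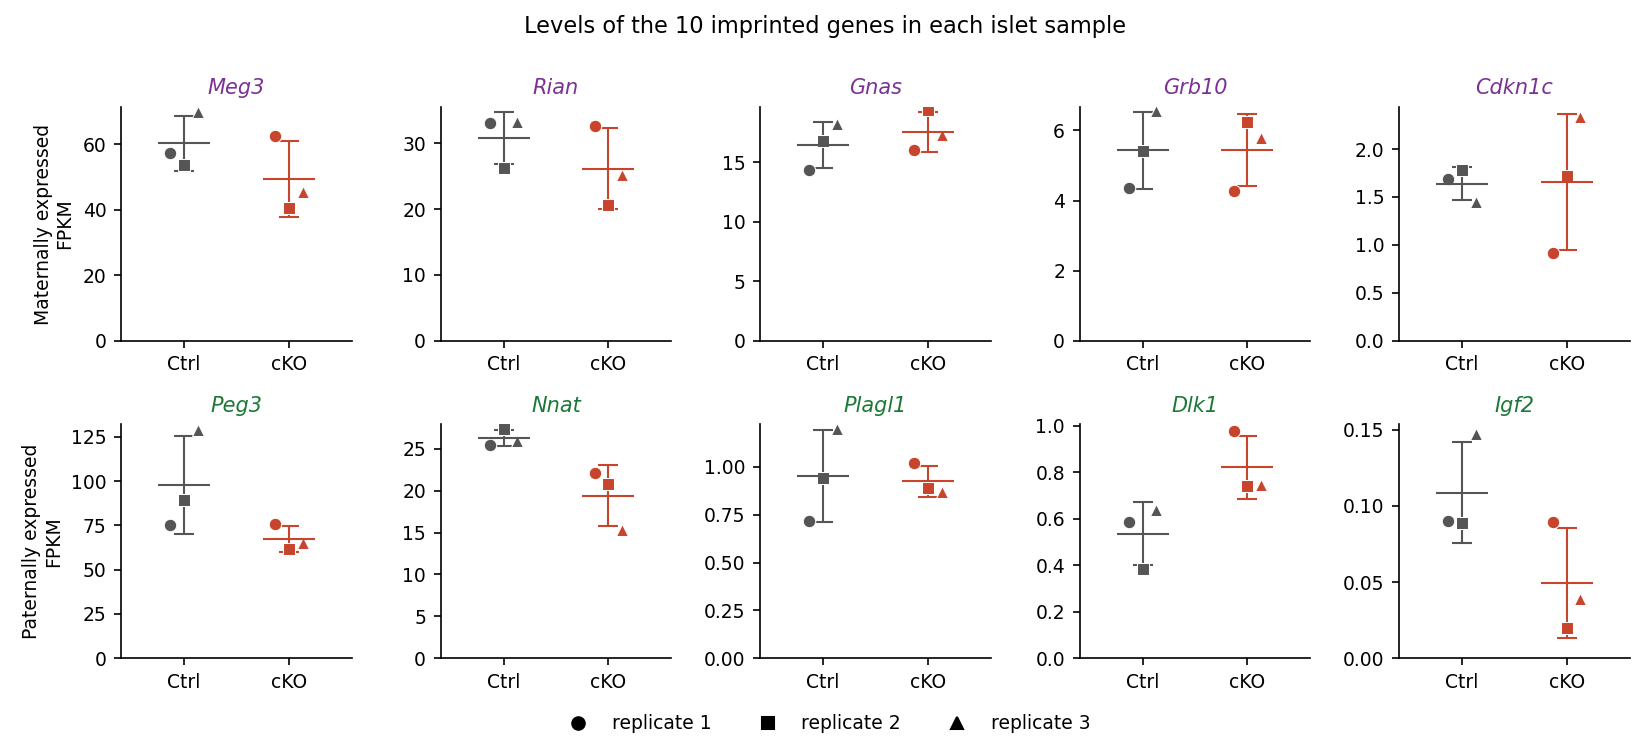
FPKM of the 10 imprinted genes (vertical axes, linear, from 0, each gene on its own scale) in the 3 Ctrl and 3 cKO islet samples, with maternally expressed genes in the upper row and paternally expressed genes in the lower row. Points are samples, with a symbol for each replicate number, the horizontal line is the mean and the bar is the SD. The cKO samples are all below Ctrl in *Nnat* (15.3 to 22.1 against 25.5 to 27.4) and all above it in *Dlk1* (0.742 to 0.976 against 0.382 to 0.638), and the samples overlap in the other 8 genes.

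Between the genotypes, the clearest difference was a lower level of *Nnat*, followed by a lower level of *Peg3*, both paternally expressed. Log2(FPKM + 1) was compared with limma over 21211 genes, those whose mean FPKM reached 0.1, a scale that understates the change of low genes, and 9 of the 10 genes were tested, all but *Igf2*. At an adjusted p under 0.05, 0 of the 9 and 0 of all genes (0%) passed with limma, and limma's voom on the reads called 2 genes, 0 of them among the 9. By the unadjusted p, with 0.05 as the limit, *Nnat* and *Peg3* were lower (2 of the 9), beside 3.07% of all genes tested, and 0 of the 9 were higher, beside 4.33%. By overlap of the samples, 1 of the 9 was lower in all cKO samples (*Nnat*), against 6.03% of all genes, and 1 was higher in all (*Dlk1*), against 7.11%. The samples are named as replicates by the labels with no word on separate animals, so p-values measure the spread between these samples.

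**Figure D2:**
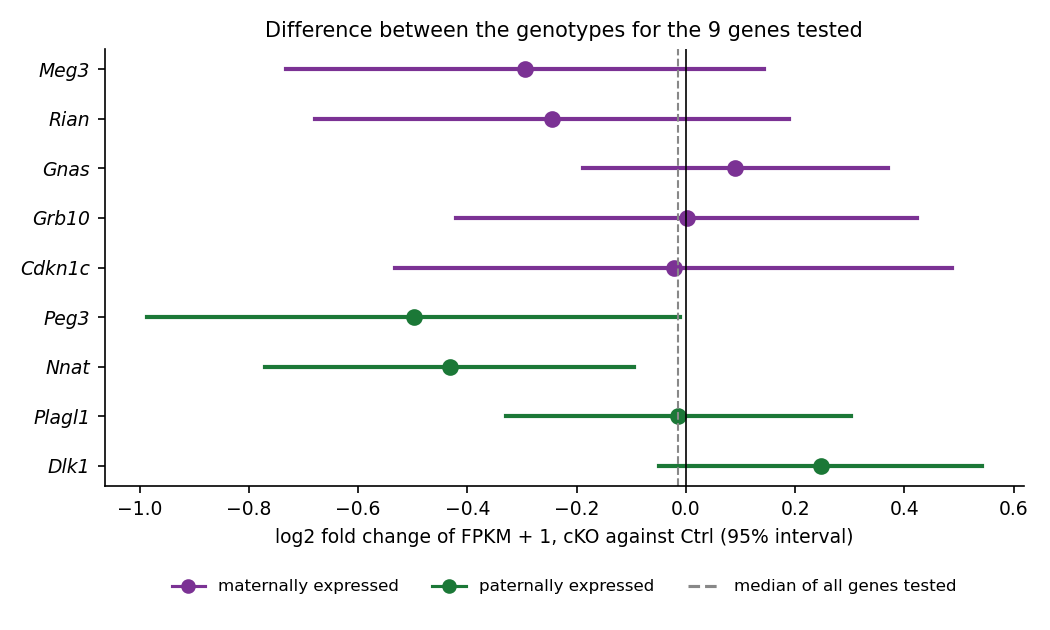
Log2 fold change of FPKM + 1 in cKO against Ctrl islets (horizontal axis) for the 9 imprinted genes tested, with 95% intervals from limma as bars and the class as colour. The dashed line is the median of all genes tested, at -0.014. The intervals of *Peg3* (-0.99 to -0.0098) and *Nnat* (-0.77 to -0.094) end below 0 and the other 7 include 0.

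Among the paternally expressed genes, *Nnat* (ENSMUSG00000067786, chromosome 2, 157560078 to 157562522 of GRCm38) encodes neuronatin, a small membrane protein of the endoplasmic reticulum that is abundant in β cells and is known to aid the signal peptidase in the handling of preproinsulin. Its FPKM was 25.5, 27.4 and 26.0 across the Ctrl samples, against 22.1, 20.8 and 15.3 across cKO. The Ctrl samples lay close together and each cKO sample was below all of them, with cKO replicate 3 the lowest. The mean was 26.3 ± 0.969 (SD, n = 3) for Ctrl, against 19.4 ± 3.61 (SD, n = 3) for cKO, 0.740 of the Ctrl level. The log2 fold change was -0.43 (standard error 0.14, 95% interval -0.77 to -0.094), with an unadjusted p of 0.020 and an adjusted p of 0.564 from limma. Between 507 and 813 reads lay behind each value. The study itself named *Nnat* among genes of insulin secretion that differed in its RNA-seq, and reported a decrease in cKO islets by qRT-PCR. The unadjusted p stayed under 0.05 in 14 of 16 alternatives, ranging from 0.013 to 0.065, and the fold change from -0.53 to -0.28. The 2 exceptions were leaving out Ctrl replicate 2 (unadjusted p = 0.065, limma) and Ctrl replicate 3 (unadjusted p = 0.0502, limma), and leaving out cKO replicate 3 brought the fold change to -0.28 (unadjusted p = 0.022, limma). With FPKM rescaled without *Ins1* and *Ins2* it was -0.43 (unadjusted p = 0.034, limma), while the sum of the β-cell markers also lay lower in every cKO sample, and its part in the level of *Nnat* was not tested.

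*Nnat* lies wholly inside the span of *Blcap* on the opposite strand. The count of reads by strand is not stated in the sources used here, so reads shared by the overlapping genes may be split in a way that is not known. *Blcap*, whose product was found reduced in bladder cancer, read 14.9, 20.6 and 19.1 FPKM for Ctrl, against 18.4, 16.3 and 16.8 for cKO, and the groups overlapped. The ratio of *Nnat* to *Blcap* was 1.71, 1.33 and 1.36 for Ctrl, against 1.20, 1.28 and 0.912 for cKO, lower in every cKO sample. For this ratio an exact two-sided permutation test gave p = 0.1, the smallest that 3 samples against 3 allow, and 0.3 after adjustment over the 6 ratios computed between genes of a domain.

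*Peg3* (ENSMUSG00000002265, chromosome 7, 6703892 to 6730431) encodes a large zinc finger protein that represses transcription. Its FPKM was 75.1, 89.2 and 128.7 for Ctrl, against 75.5, 61.4 and 65.1 for cKO. Ctrl replicate 3 was far above the rest, and cKO replicate 1 lay just above Ctrl replicate 1, so the groups overlapped by this pair. The mean was 97.6 ± 27.8 (SD, n = 3) for Ctrl, against 67.3 ± 7.31 (SD, n = 3) for cKO. The log2 fold change was -0.50 (standard error 0.20, 95% interval -0.99 to -0.0098), with an unadjusted p of 0.047 and an adjusted p of 0.668 from limma. The unadjusted p stayed under 0.05 in 4 of 16 alternatives and the direction in all 16. Without Ctrl replicate 3 the fold change was -0.28 (unadjusted p = 0.082, limma), and without Ctrl replicate 1 it was -0.67 (unadjusted p = 0.016, limma). Between 14219 and 28519 reads lay behind each value.

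The genes beside *Peg3* were also at lower values in cKO islets. *Usp29* encodes a deubiquitinating enzyme, is paternally expressed and starts 147 bases from *Peg3* across the stretch printed above. Its FPKM was 1.81, 1.90 and 2.34 for Ctrl, against 1.48, 1.28 and 1.20 for cKO, with no overlap, a log2 fold change of -0.38 (unadjusted p = 0.021, adjusted p = 0.577, limma). This p passed in 12 of 16 alternatives, and not with the replicate block (0.057) or without Ctrl replicate 3 (0.056), cKO replicate 2 (0.058) or cKO replicate 3 (0.069). *Zim1*, a zinc finger gene that is maternally expressed and lies 7442 bases from *Peg3*, read 6.66, 10.4 and 17.7 FPKM for Ctrl, against 6.47, 5.61 and 6.80 for cKO. The groups overlapped, with Ctrl replicate 1 below cKO replicate 3 and Ctrl replicate 3 far above the rest. Its log2 fold change was -0.70 (unadjusted p = 0.060, limma), -1.01 without Ctrl replicate 1 (unadjusted p = 0.007, limma) and -0.36 without Ctrl replicate 3 (unadjusted p = 0.125, limma). The ratio of *Peg3* to *Usp29* was 41.6 to 54.9 in Ctrl and 47.9 to 54.2 in cKO (exact permutation p = 0.5, adjusted 0.75), and that of *Peg3* to *Zim1* 7.26 to 11.3 and 9.57 to 11.7 (exact permutation p = 0.3, adjusted 0.6). Both ratios overlapped between the genotypes, for a pair of paternally expressed genes as for a pair with opposite classes. *Zfp264*, named here after its values were seen, was below the limit for testing, with 17 reads summed over Ctrl and 0 over cKO (95% Poisson intervals 9.90 to 27.2 and 0 to 3.69, for counting error only).

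*Dlk1* (ENSMUSG00000040856, chromosome 12, 109452823 to 109463336) encodes a membrane protein related to Notch ligands that holds back the differentiation of fat and other cells. It was low, at an FPKM of 0.588, 0.382 and 0.638 for Ctrl, against 0.976, 0.742 and 0.743 for cKO, from 34 to 97 reads a sample. All cKO samples were above all Ctrl samples, in the direction opposite to *Nnat* and *Peg3*. The summed reads were 152 in Ctrl (95% Poisson interval 129 to 178) and 246 in cKO (216 to 279), and these intervals cover counting error only. The mean was 0.536 ± 0.135 (SD, n = 3) for Ctrl, against 0.820 ± 0.135 (SD, n = 3) for cKO, 1.53 times the Ctrl level. The log2 fold change was 0.25 (standard error 0.12, 95% interval -0.049 to 0.54) and missed the threshold, with an unadjusted p of 0.088 and an adjusted p of 0.719 from limma. With voom on the reads it was 0.71 (unadjusted p = 0.039, limma) and with sample weights 0.29 (unadjusted p = 0.044, limma). Without Ctrl replicate 1 it was 0.27 (unadjusted p = 0.089, limma).

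*Plagl1* (ENSMUSG00000019817, chromosome 10, 13060504 to 13131694), a zinc finger factor that slows cell growth and is linked to transient neonatal diabetes when overexpressed, was at 0.718, 0.943 and 1.20 for Ctrl, against 1.02, 0.890 and 0.870 for cKO. The cKO samples lay within the Ctrl range, with a log2 fold change of -0.014 (95% interval -0.33 to 0.30, unadjusted p = 0.920, limma). *Igf2* (ENSMUSG00000048583, chromosome 7, 142650766 to 142666816), the fetal growth factor, was at the edge of detection. It had 9, 8 and 14 reads across the Ctrl samples, against 9, 2 and 4 across cKO, an FPKM of 0.0901, 0.0889 and 0.147 against 0.0895, 0.0201 and 0.0386. The summed 31 and 15 reads had 95% Poisson intervals of 21.1 to 44.0 and 8.40 to 24.7, for counting error only. The samples of the genotypes overlapped, and *Igf2* was not tested. *Ins2*, next to *Igf2* on chromosome 7, had an FPKM of 154877 to 178676 in Ctrl and 109030 to 132945 in cKO, a mean 27.4% lower with no overlap. Its unadjusted p depended on the trend of limma, at 0.877 with it and 0.006 without. *H19*, the maternally expressed RNA of the same domain, was at 0 to 0.140 and was not tested.

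Of the maternally expressed genes, *Meg3* and *Rian* are long RNAs kept in the nucleus, *Rian* being the host of many small nucleolar RNAs and microRNAs. Both come from the same chromosome 12 domain as *Dlk1*, in the order *Dlk1*, *Meg3*, *Rtl1*, *Rian* and *Mirg*. *Meg3* (ENSMUSG00000021268, 109541001 to 109571726) read 57.2, 53.6 and 69.7 FPKM for Ctrl, against 62.5, 40.5 and 45.3 for cKO. Samples 2 and 3 of cKO were below all Ctrl samples and cKO replicate 1 was within the Ctrl range. *Rian* (ENSMUSG00000097451, 109603940 to 109661716) was at 33.0, 26.3 and 33.1 for Ctrl, against 32.7, 20.6 and 25.2 for cKO, with the same 2 cKO samples below Ctrl. The log2 fold change was -0.29 for *Meg3* (95% interval -0.73 to 0.14, unadjusted p = 0.154, limma) and -0.25 for *Rian* (-0.68 to 0.19, unadjusted p = 0.220, limma). Without cKO replicate 1 these were -0.47 (unadjusted p = 0.020, limma) and -0.41 (unadjusted p = 0.042, limma), so 1 library decided both calls.

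**Figure D3:**
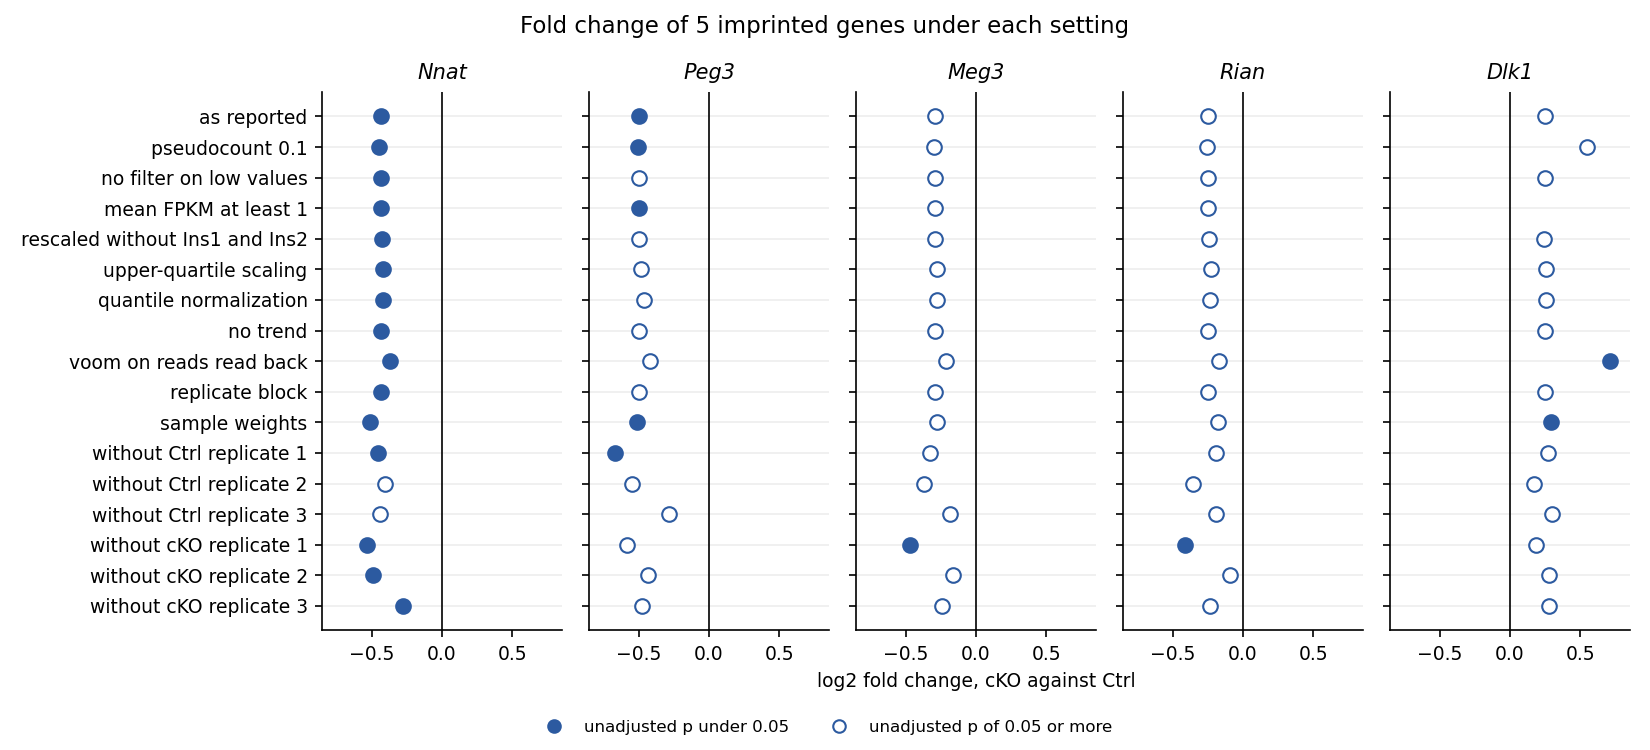
Log2 fold change in cKO against Ctrl islets (horizontal axis) of *Nnat*, *Peg3*, *Meg3*, *Rian* and *Dlk1* as reported and under 16 alternatives (rows), filled where the unadjusted p is under 0.05. *Dlk1* is below the limit and has no value at a mean FPKM of at least 1. *Nnat* is filled in 14 of the 16 alternatives, *Peg3* in 4, *Dlk1* in 2, and *Meg3* and *Rian* in 1 each.

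*Meg3* and *Rian* stayed in proportion across samples, with a ratio of 1.73 to 2.10 in Ctrl and 1.80 to 1.97 in cKO (exact permutation p = 0.7, adjusted 0.84). The ratio of *Meg3* to *Mirg*, the third long RNA of the series, was 11.1 to 19.3 in Ctrl and 13.5 to 15.0 in cKO (exact permutation p = 1, adjusted 1). *Mirg* was at 5.15, 4.08 and 3.61 for Ctrl, against 4.62, 2.70 and 3.18 for cKO, a log2 fold change of -0.24 (unadjusted p = 0.247, limma). *Rtl1*, a paternally expressed gene opposite to these RNAs, was at 0.260 to 0.312 in Ctrl and 0.183 to 0.367 in cKO, and its log2 fold change was -0.0036. Against *Dlk1*, the paternally expressed gene of the domain, *Meg3* gave a ratio of 97.4, 140.4 and 109.3 for Ctrl, against 64.1, 54.6 and 61.0 for cKO. The ratio was lower in every cKO sample, a difference of -0.94 on the log2 scale, at the smallest exact permutation p of 0.1 and 0.3 after adjustment over 6 ratios. This pair was added after the values of both genes had been seen.

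**Figure D4:**
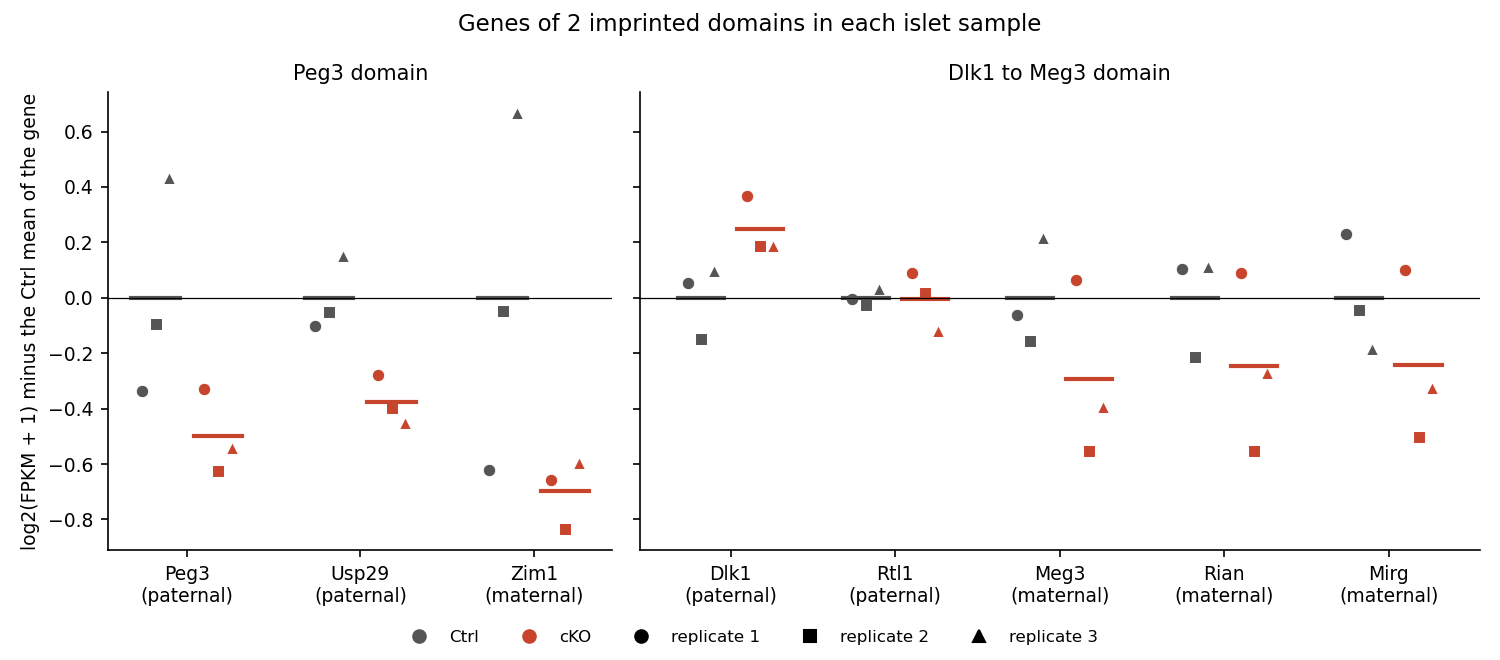
Log2(FPKM + 1) of each sample minus the Ctrl mean of the gene (vertical axis) for the *Peg3* domain at left and the *Dlk1* to *Meg3* domain at right, with the expressed allele by textbook class under each name. Points are samples, with a symbol for each replicate number, and short lines are group means. The cKO samples are all below Ctrl in *Usp29* and all above it in *Dlk1*, and cKO replicate 1 lies with the Ctrl samples in *Meg3*, *Rian* and *Mirg*.

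*Gnas* (ENSMUSG00000027523, chromosome 2, 174284320 to 174346744) encodes the stimulatory G protein subunit that couples receptors such as that for GLP-1 to adenylyl cyclase. Its FPKM was 14.4, 16.8 and 18.2 for Ctrl, against 16.0, 19.4 and 17.3 for cKO. The groups overlapped, with a log2 fold change of 0.091 (95% interval -0.19 to 0.37, unadjusted p = 0.463, limma). This interval leaves room for a change of up to 0.37 on the log2 scale. *Nespas*, the paternally expressed RNA on the opposite strand of the same domain, was low at 0.274, 0.202 and 0.191 for Ctrl, against 0.109, 0.0915 and 0.141 for cKO, without overlap but at an unadjusted p of 0.176 (limma). Of the other genes inside the span of *Gnas*, *Gm27899*, a feature of 64 bases, was lower in every cKO sample, with a log2 fold change of -1.49 (unadjusted p = 0.005, adjusted p = 0.454, limma) from 2, 5 and 4 reads for Ctrl and 0, 1 and 1 for cKO. *Gm20721* on the opposite strand was at 0.10 (unadjusted p = 0.495, limma) and *Gm27849* at 0.080 (unadjusted p = 0.859, limma). Over the 10 genes, 36 annotated genes overlapped a span and 16 were tested. At an unadjusted p under 0.05, 0 were higher and 1 lower (*Gm27899*), beside 4.33% and 3.07% of all genes tested. The 10 tested inside *Rian*, among them *Gm24564*, *DQ267102* and *Mir1188*, had log2 fold changes from -0.72 to 0.99. These features, 71 to 2011 bases long, had only 0 to 19 reads a sample. The highest, *Mir1188*, had 1, 2 and 12 reads for Ctrl, against 15, 8 and 7 for cKO. *Gm27596* inside *Meg3* had a log2 fold change of -0.38 from 0 to 5 reads a sample. Whether these reads came from small RNAs or from the host RNA was not tested.

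*Grb10* (ENSMUSG00000020176, chromosome 11, 11930508 to 12038683), an adaptor that binds the insulin and IGF1 receptors and dampens their signal, was at 4.35, 5.40 and 6.55 for Ctrl, against 4.28, 6.25 and 5.77 for cKO. The means were 5.43 ± 1.10 (SD, n = 3) and 5.43 ± 1.02 (SD, n = 3), and the 95% interval of the log2 fold change ran from -0.42 to 0.42. *Ddc* and *Cobl*, its neighbours, had log2 fold changes of -0.024 (unadjusted p = 0.904, limma) and 0.063 (unadjusted p = 0.675, limma).

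*Cdkn1c* (ENSMUSG00000037664, chromosome 7, 143458339 to 143461050) encodes p57, an inhibitor of cyclin-dependent kinases that restrains β-cell division and is lost in focal hyperinsulinism. It was at 1.69, 1.78 and 1.44 for Ctrl, against 0.921, 1.72 and 2.33 for cKO. The cKO samples spread below and above the Ctrl samples, and the log2 fold change was -0.022 (95% interval -0.53 to 0.49, unadjusted p = 0.920, limma), from 33 to 86 reads a sample. *Kcnq1*, a potassium channel gene of the same domain, read 0.798, 1.09 and 0.969 FPKM for Ctrl, against 1.77, 1.50 and 1.32 for cKO, higher in every cKO sample (log2 fold change 0.37, unadjusted p = 0.023, adjusted p = 0.583, limma). The call was lost without Ctrl replicate 1 (unadjusted p = 0.054, limma), cKO replicate 1 (0.067) or cKO replicate 2 (0.053) and with the replicate block (0.059). *Slc22a18* was at 0.814 to 1.38 in Ctrl and 1.11 to 1.98 in cKO, a log2 fold change of 0.27 (unadjusted p = 0.166, limma).

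Set by class, the 5 maternally expressed genes had a median log2 fold change of -0.022 and the 4 paternally expressed genes tested one of -0.22, beside -0.014 over all genes tested. At an unadjusted p under 0.05, 0 of 5 maternally expressed and 2 of 4 paternally expressed genes were lower, beside 3.07% of all genes tested. The paternally expressed genes did not share a sign, with *Dlk1* at 0.25 and the other 3 tested below 0. Without *Grb10* and *Gnas*, whose class is mixed, the median of *Meg3*, *Rian* and *Cdkn1c* was -0.25, below that of the paternally expressed genes. The mean log2(FPKM + 1) of the 5 maternally expressed genes was 3.75, 3.77 and 3.94 for Ctrl, against 3.70, 3.69 and 3.79 for cKO. For the 5 paternally expressed genes it was 2.51, 2.57 and 2.76 for Ctrl, against 2.58, 2.43 and 2.37 for cKO. In both classes the samples overlapped between the genotypes. The classes were chosen with results of these data known, so they were not tested against each other.

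A list of 55 other imprinted genes widens the view of the classes, with the expressed allele taken from at least 1 mouse tissue. Of these, 39 were tested, and 4 passed an unadjusted p of 0.05 as higher and 2 as lower. Of the 20 maternally expressed, 4 were higher and 1 lower, with a median log2 fold change of 0.043. Of the 19 paternally expressed, 0 were higher and 1 was lower, with a median of -0.072. Over both lists together, 25 maternally expressed genes had 4 higher and 1 lower, and 23 paternally expressed genes had 0 higher and 3 lower, of which *Peg3* and *Usp29* share a promoter region. By overlap, 3 of 25 maternally and 1 of 23 paternally expressed genes were higher in all cKO samples, and 0 of 25 and 5 of 23 were lower in all. Over all genes tested, 4.33% were higher and 3.07% lower at that p, and 7.11% and 6.03% by overlap. The classes were not tested against each other here either.

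*Igf2r*, the receptor that removes IGF2, was at 9.27, 7.90 and 9.75 for Ctrl, against 14.3, 11.3 and 12.4 for cKO, a log2 fold change of 0.45 (unadjusted p = 0.008, adjusted p = 0.481, limma). *H13*, a signal peptide peptidase of the endoplasmic reticulum, was at 21.6, 17.7 and 14.4 for Ctrl, against 26.3, 23.5 and 25.5 for cKO (0.48, unadjusted p = 0.015, limma). Both were higher in every cKO sample, and the call of *H13* was lost without cKO replicate 1 (unadjusted p = 0.053, limma). *Airn* overlaps the span of *Igf2r* on the opposite strand, and *Mcts2* lies inside *H13* on the same strand. *Kcnq1ot1* lies inside *Kcnq1* on the opposite strand. All of these partners are listed as paternally expressed, and how reads shared by such overlapping genes were split is not known. *Cd81* (0.56, unadjusted p = 0.033, limma) and *Tfpi2* (-0.47, unadjusted p = 0.048, limma), named after their values were seen, overlapped between the genotypes.

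**Figure D5:**
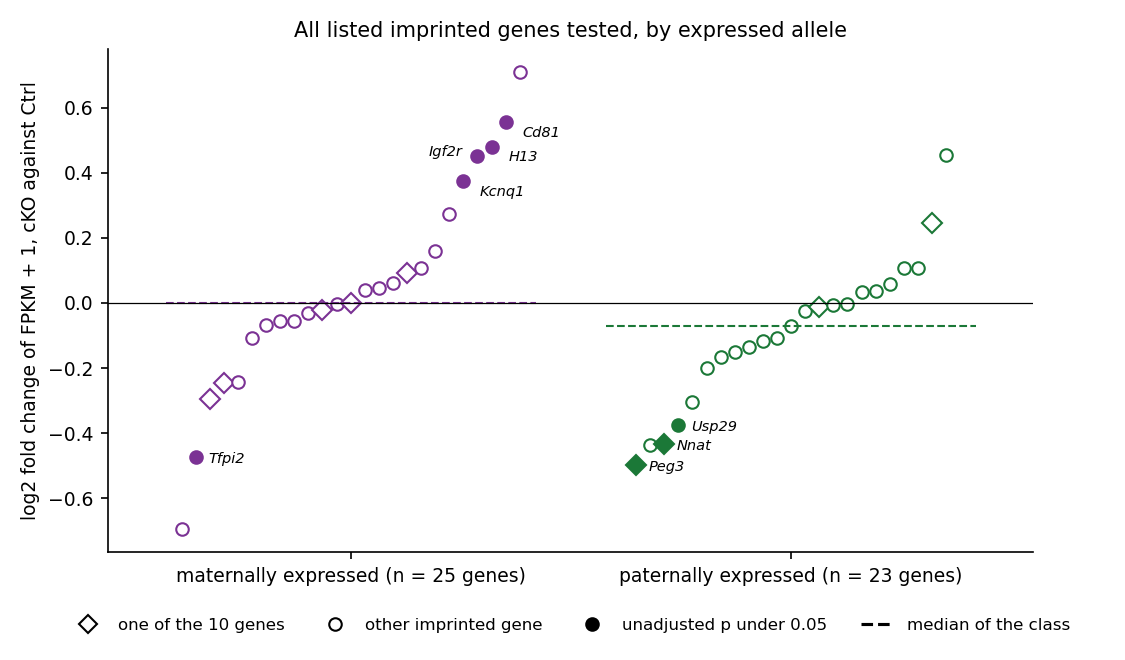
Log2 fold change of FPKM + 1 in cKO against Ctrl islets (vertical axis) for all 48 listed imprinted genes tested, sorted within the maternally (n = 25) and paternally (n = 23) expressed classes. Diamonds are the 9 genes tested of the 10 described, circles are the other imprinted genes, filled symbols have an unadjusted p under 0.05 and dashed lines are the class medians, at 0.0012 and -0.072. The 4 filled symbols above 0 are in the maternally expressed class, and 3 of the 4 below 0 in the paternally expressed class. Over all genes tested, 4.33% were higher and 3.07% lower at that p, and the classes were not tested against each other.

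The imprinted gene whose log2(FPKM + 1) followed each of the 10 most closely over the 6 samples was sought among the 38 listed imprinted genes whose mean FPKM reached 1. Neighbours in a domain came first for *Peg3*, with *Zim1* (Pearson's r = 0.97), and for *Meg3* and *Rian*, with each other (0.93). *Dlk1* was closest to *Igf2r* (0.97), *Nnat* to *Zrsr1* (0.85), *Grb10* and *Gnas* both to *Snrpn* (0.97 and 0.91), *Cdkn1c* to *Inpp5f* (0.85), *Plagl1* to *Ppp1r9a* (0.89) and *Igf2* to *Meg3* (0.96). These values share the same 6 libraries and their depths, each is the highest of many, and they are a description. They were taken over both genotypes together, so a difference between the genotypes that a pair shares also raises r. *Peg3* and *Zim1* were both highest in Ctrl replicate 3.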

How the data were processed

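Islet RNA-seq of 3 Ctrl and 3 cKO samples was analysed. Per the labels, RNA came from TRIzol extraction and libraries from the SMARTER mRNA kit, and the authors used DESeq2 for their own test. The aligner and counter are not given in the sources used here, and the builds in the submitters' processing notes are GRCm38 and mm10. The authors deposited FPKM per gene and sample, with replicates kept apart. The deposited gene length equalled the union of exons in GENCODE M21 for 98.0% of 54409 genes matched, and for all 10 members. FPKM times length gave whole reads for 100% of values (tolerance 0.001), which were used for depth and for limma's voom.

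Because the values are FPKM, log2(FPKM + 1) was compared with limma 3.58.1 in R 4.3.3 (moderated by empirical Bayes with a trend, two-sided), adjusting by Benjamini-Hochberg over the 21211 genes whose mean FPKM reached 0.1. Ratios were compared by exact permutation. Tables and figures used Python 3.11.15, scipy 1.17.1 and matplotlib 3.10.9. On simulated data, 184 of 200 genes changed 4-fold were called at an adjusted p under 0.05 with 7 unchanged genes, and in a null simulation 5.15% of 21211 genes passed an unadjusted p of 0.05 and 0 an adjusted one. A 4-fold change is larger than that of any member tested, and the simulation held no outlying sample. The power for changes of the size reported here was not measured. There were 15 alternatives to the fit set with the design and 2 added after seeing the data (sample weights, and the principal transcript length for the order of levels).

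The members and lists were chosen with earlier results of these data known. Named are the 10 genes, *Parn*, *Ins2*, listed neighbours at a mean FPKM of at least 0.1, genes overlapping a member (in part given as counts and ranges), list genes with an unadjusted p under 0.05 and no overlap, and for each member its closest imprinted gene. Groups follow the labels. LACE-seq and the other assays of the study were not analysed here.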

Additional observations from a re-analysis of the deposited data

How the results depend on the processing

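The comparison has 6 samples, with 2 to 14 reads behind *Igf2* and 33 to 97 behind *Cdkn1c* and *Dlk1*. Of the members at an unadjusted p under 0.05, 1 and not 2 was lower with no filter on low values, FPKM rescaled without *Ins1* and *Ins2*, upper-quartile scaling, quantile normalization, no trend, voom and the replicate block, and 1 and not 0 was higher with voom and with sample weights (*Dlk1*). With a minimum mean FPKM of 1, 0 members were higher without overlap. Other imprinted genes that were lower numbered 4 with no filter, 1 at a mean FPKM of at least 1, 1 rescaled, 1 with quantile normalization and 5 with sample weights, against 2. The paternally expressed median was -0.079 with no filter, which adds *Igf2*, and -0.47 at a mean FPKM of at least 1, which drops 2 genes, and the maternally expressed one was -0.25 without *Grb10* and *Gnas*. Over all genes, voom gave 2 at an adjusted p under 0.05, 1499 higher and 328 lower, and sample weights gave 1245 lower. The replicate numbers did not pair the samples (correlations of deviations -0.17, -0.022 and -0.065), and the replicate block gave 737 higher and 538 lower genes of all, 1 lower member (*Nnat*) and 2 higher other imprinted genes.

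Leaving out 1 sample at a time gave 0 to 1 gene at an adjusted p under 0.05, 709 to 1251 higher and 402 to 1173 lower (1173 without Ctrl replicate 1), 0 to 3 members lower, 1 to 4 members lower without overlap, 2 to 4 other imprinted genes higher and 0 to 4 lower, a maternally expressed median of -0.20 to 0.14 and a paternally expressed one of -0.29 to -0.10. With 1 sample fewer, the genotypes separate more easily, and the share of all genes without overlap was not counted for these fits. The counts without overlap therefore have no background beside them here. Signs changed only among values near 0. With voom *Cdkn1c* was at 0.018, *Plagl1* at 0.073, *Ddc* at 0.064, *Blcap* at 0.017 and *Rtl1* at 0.017, with quantile normalization *Ddc* was at 0.025 and *Rtl1* at 3.9e-05, and with sample weights *Cdkn1c* was at 0.025 and *Cobl* at -0.0086. When 1 sample was left out, *Grb10* ranged from -0.12 to 0.14, *Cdkn1c* from -0.20 to 0.19, *Plagl1* from -0.10 to 0.075, *Ddc* from -0.16 to 0.13, *Blcap* from -0.20 to 0.022, *Rtl1* from -0.051 to 0.054 and *Cobl* from -0.032 to 0.16. Of 427 comparisons of a named gene with an alternative, 359 kept both direction and side of the threshold. Causes of these differences were not tested.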

Other observations

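The proteins that work with these genes were described from lists of their pathways. *Cdkn1a*, which encodes p21, the related kinase inhibitor of the family of *Cdkn1c*, read 23.9, 5.40 and 8.61 FPKM for Ctrl, against 46.7, 36.1 and 47.7 for cKO, a log2 fold change of 1.94 (unadjusted p = 0.005, adjusted p = 0.454, limma). *Cdkn2c* was at 5.40, 4.90 and 5.33 for Ctrl, against 2.69, 2.55 and 3.75 for cKO (-0.65, unadjusted p = 0.003, limma), and *Cdkn2d* was also lower in every cKO sample (-0.24, unadjusted p = 0.046, limma). Its p passed in 5 of 16 alternatives and in 1 of 6 fits that left out a sample, and was 0.103 without Ctrl replicate 1. Of the 14 G1 cyclins, kinases and inhibitors tested, 1 passed an unadjusted p of 0.05 upward and 2 downward, with a median of -0.11, beside 4.33% higher, 3.07% lower and a median of -0.014 over all genes tested.

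Of 12 insulin and IGF receptors, adaptors and binding proteins, the partners of *Igf2* and *Grb10*, 2 were higher and 0 lower, beside the same shares of all genes, with a median of 0.070. *Igfbp5*, a secreted IGF binding protein, was at 7.94, 7.80 and 3.10 for Ctrl, against 20.9, 27.5 and 17.7 for cKO, a log2 fold change of 1.72 (unadjusted p = 0.002, adjusted p = 0.379, limma), and *Igf2r* was the other. Among 17 genes of Gs and cyclic AMP signalling downstream of *Gnas*, 0 passed in either direction, with log2 fold changes from -0.14 to 0.21. Over all genes tested 4.33% passed as higher and 3.07% as lower. The 5 subunits of the signal peptidase complex, to which neuronatin binds, had log2 fold changes of 0.17 or less and none below 0. Of these 0 passed, beside the same shares of all genes. Of 14 factors that keep or remove imprints, among them the DNA methyltransferases and ZFP57, 0 passed, beside the same shares. Their median was -0.082 and their range ran from -0.51 to 0.15. The lowest was *Uhrf1*, at 4.10, 0.224 and 0.494 for Ctrl, against 0.508, 0.513 and 0.415 for cKO. Without Ctrl replicate 1, whose leukocyte and cycling markers were high, *Uhrf1* was at 0.13 and the range ran from -0.19 to 0.13. The part of either marker list in the level of *Uhrf1* was not tested.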
